A study of Mus musculus with 6 samples.

Results

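Il6, Lif and Ctf1, the genes of 3 cytokines that signal through gp130, and Jak2, the gene of a kinase attached to the receptors of this family, were 4 of the 149 genes in the authors' deposited table. They were picked from that table by symbol. The table itself had been selected on the difference between the groups compared below, since every gene in it passed an FDR (the p-value adjusted for the number of genes tested) of 0.05 and an absolute log2 fold change of 1 in the authors' own test. The differences of the 4 genes are therefore a description, and no test of them was made here. By construction 100% of the tabled genes carried the authors' call, 81.9% as higher and 18.1% as lower with TMAO, and nothing can be read from the fact that all 4 genes were among them.

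The series measured poly(A)-selected RNA from the reperfused region of the heart in male C57BL/6 mice of wild-type genotype. The TMAO+IR group (3 libraries) drank 0.12% trimethylamine N-oxide (TMAO), an oxidised product of a gut bacterial metabolite of choline and carnitine, for 4 weeks before and throughout the procedure. The IR group (3 libraries) had the procedure alone. In both groups ischaemia of 45 min, from a ligature around the left anterior descending artery, was followed by 24 h of reperfusion, so there was no heart without ischaemia-reperfusion among these libraries. The labels number the libraries without naming animals, so the spread between them may be technical. Expression levels are fragments per kilobase of transcript, scaled for sequencing depth (FPKM), given as mean ± SD, and log2 differences are TMAO+IR minus IR from read counts scaled by recovered library sizes, given ± SE of the replicate spread.

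gp130, the product of Il6st, is the shared subunit of a family of cytokine receptors. Interleukin 6 (Il6) first binds its own receptor chain and then gp130, whereas leukaemia inhibitory factor (Lif) and cardiotrophin 1 (Ctf1) bring gp130 together with the LIF receptor. The kinases JAK1, JAK2 and TYK2 sit on the inner part of these receptors and phosphorylate STAT3 and other transcription factors when the ligand binds. In the heart this pathway is known for the acute inflammatory response, for survival of cardiac muscle cells under stress and for their hypertrophy, and cardiotrophin 1 was found through its hypertrophic action on these cells.

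Il6 (ENSMUSG00000025746) lies on the plus strand of chromosome 5 at 30013114 to 30019981 of GRCm38, and Lif (ENSMUSG00000034394) on the plus strand of chromosome 11 at 4257557 to 4272514. Ctf1 (ENSMUSG00000042340) lies on the plus strand of chromosome 7 at 127712736 to 127718192, and Jak2 (ENSMUSG00000024789) on the plus strand of chromosome 19 at 29251828 to 29313080. The 4 genes thus lie on different chromosomes. Ctf1 shares its last 87 bases with Ctf2, which runs on the opposite strand, and without a stated strand setting reads from that overlap cannot be assigned. No annotated gene overlapped Il6, Lif or Jak2.

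The promoters of the 4 genes are shown as a description, and a link between their sequence and the direction of each gene was not tested. Each runs from 250 bases before to 50 after the start of the gene in RefSeq (GRCm38.p6, plus strand, read 5′ to 3′), and capitals mark the matches to 8 motifs searched on both strands. All 4 genes matched an entry of the promoter table by symbol.
Il6, chr5:30012864-30013163: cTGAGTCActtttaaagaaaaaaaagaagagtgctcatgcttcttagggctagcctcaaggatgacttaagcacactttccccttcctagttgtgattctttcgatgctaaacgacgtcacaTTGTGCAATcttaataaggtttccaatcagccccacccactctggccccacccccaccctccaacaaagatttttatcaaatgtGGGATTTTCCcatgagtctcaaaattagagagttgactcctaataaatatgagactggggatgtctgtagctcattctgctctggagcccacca
Lif, chr11:4257318-4257617: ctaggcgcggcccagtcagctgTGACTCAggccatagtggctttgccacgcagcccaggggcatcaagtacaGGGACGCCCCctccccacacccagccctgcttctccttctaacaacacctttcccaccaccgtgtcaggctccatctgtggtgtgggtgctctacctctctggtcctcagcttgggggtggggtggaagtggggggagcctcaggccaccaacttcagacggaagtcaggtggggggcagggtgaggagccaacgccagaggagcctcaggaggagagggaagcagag
Ctf1, chr7:127712453-127712752: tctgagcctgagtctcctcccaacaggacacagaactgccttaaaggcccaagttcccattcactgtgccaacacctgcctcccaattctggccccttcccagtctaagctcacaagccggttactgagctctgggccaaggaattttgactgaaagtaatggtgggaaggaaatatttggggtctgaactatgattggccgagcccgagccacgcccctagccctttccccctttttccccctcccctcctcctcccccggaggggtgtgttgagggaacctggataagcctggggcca
Jak2, chr19:29251553-29251852: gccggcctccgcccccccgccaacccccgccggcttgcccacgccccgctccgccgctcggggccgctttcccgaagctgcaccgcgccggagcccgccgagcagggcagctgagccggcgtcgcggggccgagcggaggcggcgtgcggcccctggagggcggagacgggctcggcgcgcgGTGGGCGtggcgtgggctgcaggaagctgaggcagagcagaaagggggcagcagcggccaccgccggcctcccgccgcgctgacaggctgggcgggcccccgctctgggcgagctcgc

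The motifs searched were the STAT motif TTCNNNGAA, the AP-1 motif TGANTCA, the cAMP response element TGACGTCA, the NF-kB consensus, the C/EBP motif TTNNGNAAT, the TATA box TATAAA, the Egr motif GTGGGCG and the heat shock motif GAANNTTC. The Il6 promoter held an AP-1 match from base -249 to -243 relative to the start, a C/EBP match from -128 to -120 and an NF-kB match from -44 to -35. The Lif promoter held an AP-1 match from -228 to -222 and an NF-kB match from -178 to -169, which read as a match on either strand. The Jak2 promoter held a single Egr match from -68 to -62, and the Ctf1 promoter held no match to any of the 8. Apart from the NF-kB match read on both strands, no matches overlapped. Among all 32851 RefSeq promoters of this length, 7.81% held the AP-1 motif, 8.46% the NF-kB consensus, 11.5% the C/EBP motif and 7.97% the Egr motif. Over 139 promoters of tabled genes these shares were 12.2% for AP-1, 10.8% for NF-kB, 12.2% for C/EBP and 6.47% for Egr. How many promoters hold none of the 8 motifs was not worked out, so the lack in Ctf1 cannot be called unusual. None of the 4 held the STAT motif, which 8.3% of all promoters held, the cAMP response element (1.79%), the TATA box (13.6%) or the heat shock motif (7.86%). A match is a run of letters and was not tested for binding. A shorter coding transcript of Lif starts at 4267095, and the sequence before that start was not used here.

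**Figure D1:**
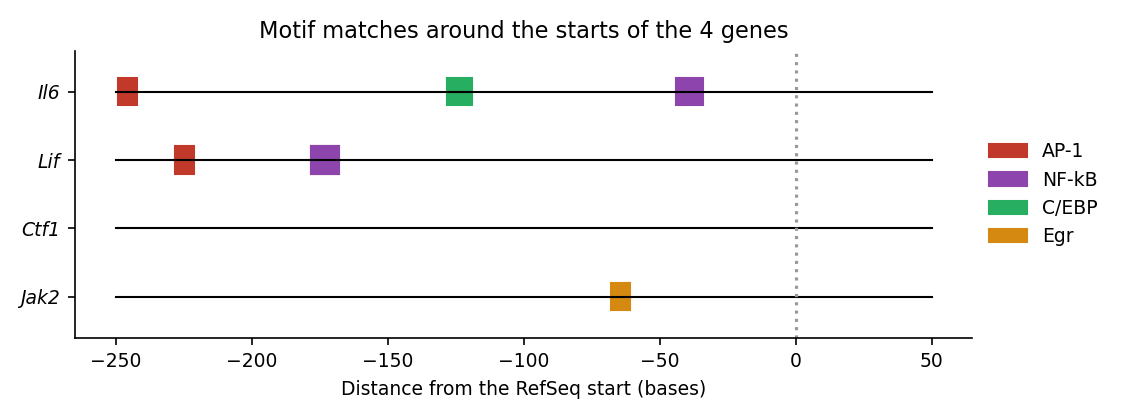
Motif matches in the promoters of Il6, Lif, Ctf1 and Jak2, with the distance from the RefSeq start in bases on the x axis and 1 gene per line. Il6 has 3 matches, Lif 2 positions, Jak2 1 and Ctf1 none.

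The promoters also differed in base composition. G and C made up 44.0% of the Il6 promoter, 63.7% of the Lif promoter, 56.7% of the Ctf1 promoter and 81.0% of the Jak2 promoter, against a median of 52.7% over all promoters. The messages differed as well. In the longest principal transcript of GENCODE M21, GC content was 35.7% in Il6 (1141 bases), 53.0% in Lif (4026 bases), 55.5% in Ctf1 (1352 bases) and 44.3% in Jak2 (5030 bases), with a median of 49.2% over 21864 protein-coding genes. The pentamer ATTTA is the core of AU-rich elements that shorten the life of many cytokine messages. Counted over the whole transcript, coding sequence included, it occurred 7 times in each of Il6, Lif and Jak2 and 0 times in Ctf1. Copies within AU-rich elements were not told apart from other copies, and a link between copies and levels was not tested. The transcripts differ in length, and 17.4% of protein-coding genes had 7 or more copies, against a median of 2 over all of them and 5 over the tabled genes. The share of genes with 0 copies was not worked out.

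Among the ligands, Il6 was the most abundant in every library and its level was higher with TMAO. It stood at 51.43, 49.61 and 42.98 FPKM in the TMAO+IR libraries, against 23.86, 21.34 and 18.69 FPKM in the IR libraries. The groups were far apart for Il6, the lowest TMAO+IR library being 1.80 times the highest IR library. The means were 48.0 ± 4.45 FPKM in TMAO+IR and 21.3 ± 2.59 FPKM in IR (n = 3 each). Counts gave a log2 difference of 1.13 ± 0.13, a 2.18-fold higher level, and the FDR was 6.22e-07 in the authors' deposited table, the sixth smallest p-value of the table. Il6 was also among the steadiest tabled genes, since its SD of log2 scaled counts within groups was 0.16 against a median of 0.41 over the 149 genes.

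Lif, a cytokine named for its effect on leukaemia cells and also released by injured tissue, was higher with TMAO at a lower level of expression. Its level was 4.35, 6.10 and 4.11 FPKM in the TMAO+IR libraries, against 1.87, 3.28 and 1.03 FPKM in the IR libraries. The groups did not overlap, but IR replicate 2 came close to the TMAO+IR libraries and IR replicate 3 lay far below the other IR libraries. The means were 4.85 ± 1.09 FPKM in TMAO+IR and 2.06 ± 1.14 FPKM in IR. The log2 difference was 1.38 ± 0.52 (2.61-fold), and the authors' deposited table gave an FDR of 0.0145. Its size moved with the extreme IR libraries, being 1.80 without IR replicate 2 and 0.96 without IR replicate 3. The coefficient of variation of the scaled Lif counts was 22.3% in TMAO+IR and 56.1% in IR, whereas counting error alone would give 5.01% in TMAO+IR and 7.49% in IR.

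Ctf1 was the one ligand gene with a lower level under TMAO. It stood at 1.67, 1.39 and 2.22 FPKM in the TMAO+IR libraries, against 3.38, 4.45 and 4.05 FPKM in the IR libraries. All 3 TMAO+IR libraries lay below all 3 IR libraries, and the lowest IR library was 1.52 times the highest TMAO+IR library. The means were 1.76 ± 0.422 FPKM in TMAO+IR and 3.96 ± 0.541 FPKM in IR. The log2 difference was -1.22 ± 0.26 (0.431-fold), and the authors' deposited table gave an FDR of 0.0124. Ctf1 rested on the fewest reads of the 4 genes, with 27, 33 and 48 counts in TMAO+IR and 68, 104 and 96 counts in IR. The coefficient of variation of its scaled counts was 26.3% in TMAO+IR and 18.0% in IR, whereas counting error alone would give 16.7% in TMAO+IR and 10.6% in IR.

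Jak2, the kinase gene, was higher with TMAO. Its level was 19.82, 20.90 and 13.11 FPKM in the TMAO+IR libraries, against 9.07, 10.54 and 5.82 FPKM in the IR libraries. Replicate 3 was the lowest library in either group, and the lowest TMAO+IR library was 1.24 times the highest IR library. The means were 17.9 ± 4.22 FPKM in TMAO+IR and 8.48 ± 2.42 FPKM in IR. The log2 difference was 1.09 ± 0.32 (2.13-fold), and the authors' deposited table gave an FDR of 0.00227. In that table its log2 fold change of 1.08 was the closest of the 4 to the limit of 1, followed by 1.17 for Il6, -1.17 for Ctf1 and 1.24 for Lif, while genes short of the limit were not analysed here. Without IR replicate 3 the log2 difference of Jak2 was 0.86, and without TMAO+IR replicate 3 it was 1.31.

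**Figure D2:**
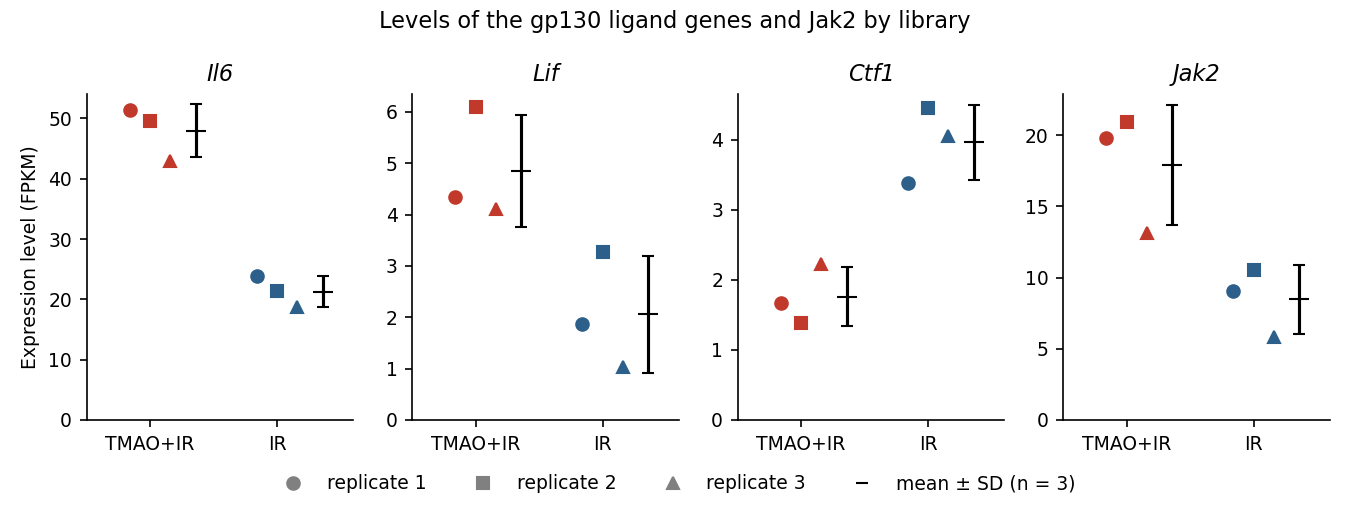
Expression level in FPKM (y axis, from 0, scaled separately in each panel) of Il6, Lif, Ctf1 and Jak2 in the 3 TMAO+IR and 3 IR libraries. Points are libraries, with a symbol for each replicate number, and bars are mean ± SD. No group pair overlaps, and the gap is widest for Il6 and narrow for Lif and Jak2.

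In all 4 genes the groups did not overlap, in FPKM or in scaled counts. This was so for 94.6% of the tabled genes in FPKM and for 97.3% in scaled counts, so it does not set the 4 genes apart. The median log2 difference was 1.22 over the 122 higher genes of the table and -1.26 over the 27 lower ones. These were bulk tissue libraries, in which fewer cells of a type and less RNA per cell cannot be told apart.

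**Figure D3:**
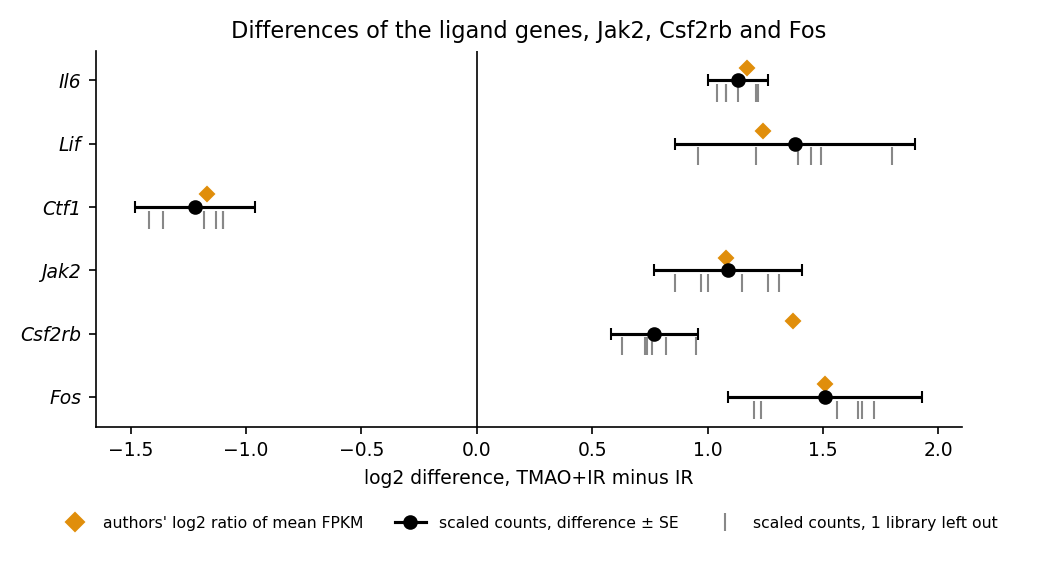
The log2 difference, TMAO+IR minus IR (x axis), of the 4 genes and of Csf2rb and Fos. Circles with bars are scaled counts with the SE (n = 3 per group), ticks leave out 1 library each, and diamonds are the log2 ratio of mean FPKM in the authors' deposited table. Ctf1 lies at -1.22, the other genes between 0.77 and 1.51, and in Csf2rb the diamond at 1.37 lies outside the bar.

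Since FPKM is per length, the 3 ligand messages could be set beside each other. The order of Lif and Ctf1 differed between the groups in every library. Lif was 2.60, 4.39 and 1.85 times Ctf1 in the TMAO+IR libraries, against 0.553, 0.737 and 0.254 times in the IR libraries. Il6 came first throughout, and Jak2 lay between Il6 and the other ligand genes in each of the 6 libraries. The summed FPKM of the 3 ligands was 57.5, 57.1 and 49.3 in TMAO+IR, against 29.1, 29.1 and 23.8 in IR. Il6 made up most of that difference in level, and the changes of Lif and Ctf1 were small beside it and opposite in sign.

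Ctf1 made up 2.91%, 2.43% and 4.50% of the summed ligand FPKM in TMAO+IR, against 11.6%, 15.3% and 17.0% in IR. The share of Ctf1 was thus smaller in every TMAO+IR library than in any IR library. The Il6 share was 89.5%, 86.9% and 87.2% in TMAO+IR and 82.0%, 73.4% and 78.6% in IR. The Lif share overlapped between the groups, at 7.57%, 10.7% and 8.34% in TMAO+IR and 6.42%, 11.3% and 4.33% in IR. Ratios between genes picked for opposite differences must differ between the groups, so these shares describe the hearts and are no separate evidence. The depth behind an FPKM value is that of its counts, and the ratios to Ctf1 carry its larger counting error. These ratios and the shares also depend on the transcript length behind the FPKM of Ctf1. That implied length ran from 880 to 1102 bases between libraries, whereas the annotated coding transcripts run from 528 to 1352 bases.

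**Figure D4:**
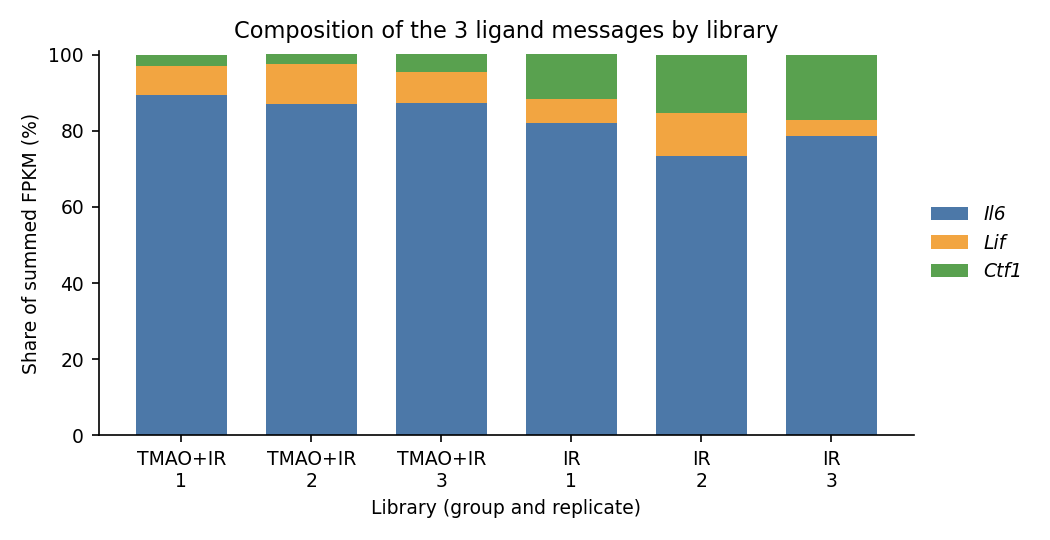
Share of Il6, Lif and Ctf1 in their summed FPKM (y axis, percent) in each of the 3 TMAO+IR and 3 IR libraries (x axis). The Ctf1 share lies between 2.43% and 4.50% in TMAO+IR and between 11.6% and 17.0% in IR, and Il6 holds most of every bar.

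Of 86 genes in a list of gp130 and JAK-STAT genes, 6 were in the table, of which 5 were higher and 1 lower. With 81.9% of all tabled genes higher, this does not set the list apart. The 6 genes comprised 3 of 12 ligands (Il6, Lif and Ctf1) and 1 of 4 kinases (Jak2). They also comprised 1 of 15 other receptors that signal through JAK2 (Csf2rb) and 1 of 26 target genes (Fos). None of the 8 receptor genes of the gp130 family, the 7 STAT genes or the 15 negative regulators was in the table, and their levels were not analysed here. The table's own annotation placed 5 genes in JAK-STAT signalling, which were the 4 genes and Csf2rb.

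Csf2rb encodes the shared beta chain of the receptors for GM-CSF and interleukins of its family, which signals through JAK2. Its level was 8.80, 8.84 and 15.44 FPKM in TMAO+IR, against 3.56, 6.18 and 3.09 FPKM in IR, and its counts were 583, 615 and 649 in TMAO+IR, against 349, 502 and 330 in IR. TMAO+IR replicate 3 stood apart in FPKM and not in counts. The number of counts per unit of FPKM was lower in every TMAO+IR library than in any IR library, so the mismatch was not confined to that library. The difference was 1.37 on the log2 scale in the authors' deposited table (FDR 0.0148) and 0.77 ± 0.19 from scaled counts. Csf2rb has a close copy in the mouse, Csf2rb2, and no source used here says how reads were divided between them.

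Fos, a subunit of AP-1 and a target of many pathways including this one, was 129.15, 204.12 and 103.49 FPKM in TMAO+IR, against 32.16, 60.17 and 61.35 FPKM in IR. Its log2 difference was 1.51 ± 0.42, and the authors' deposited table gave an FDR of 0.00167. The low library within IR was replicate 1 for Fos, whereas it was replicate 3 for Il6, Lif and Jak2.

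Within the groups, Lif, Jak2 and Il6 shared their lowest library and Ctf1 did not. Relative to the group mean on the log2 scale, IR replicate 2 stood at 0.84 for Lif and 0.34 for Jak2, and IR replicate 3 at -0.86 for Lif and -0.45 for Jak2. Il6 differed from them in that IR replicate 1 was its highest IR library, at 0.17, with 0.01 in IR replicate 2 and -0.18 in IR replicate 3. TMAO+IR replicate 3 stood at -0.22 for Lif, -0.43 for Jak2 and -0.18 for Il6, but at 0.41 for Ctf1. Of the 122 higher genes, 97 had TMAO+IR replicate 3 as the lowest library of its group and 79 had IR replicate 3, while IR replicate 2 was the highest in 88. Of the 27 lower genes, 15 had TMAO+IR replicate 3 as the highest library of its group, so this does not set Ctf1 apart. The recovered library sizes were 18370943 fragments in the smallest, TMAO+IR replicate 1, and 22442171 in the largest, IR replicate 3, and the tabled genes held 0.678% to 1.08% of them in TMAO+IR and 0.33% to 0.505% in IR.

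The tabled genes most like each of the 4 were found by the root mean square difference between log2 scaled counts over the 6 libraries, after each gene was centred on its own mean. Jak2 had the closest neighbours, with Ppbp (a platelet chemokine) at 0.07 and Klf6 (a transcription factor) and Rps6ka3 (a ribosomal S6 kinase) at 0.08, against a median of 0.32 over the other genes. Il6 was nearest to Mcoln2, a lysosomal cation channel, at 0.09, and to Trim30b and Trim30d at 0.11, against a median of 0.36. Counts of Trim30 paralogues are uncertain, since reads may be shared between them. Lif was nearest to Olr1, the receptor for oxidised low-density lipoprotein, at 0.18, then to Ptgs2, which encodes cyclooxygenase 2, at 0.20 and to the complement gene Cfb at 0.22, against a median of 0.47. Ctf1 was nearest to Hpn, a serine protease, at 0.14, to Art5, an ADP-ribosyltransferase, at 0.22 and to Tlcd2 at 0.23, against a median of 1.29 over a table in which most genes were higher. Between the 4 genes themselves, the difference was 0.22 for Il6 and Jak2, 0.34 for Lif and Jak2 and 0.48 for Il6 and Lif, while Ctf1 differed by 1.23 from Il6, 1.42 from Lif and 1.26 from Jak2. With each gene centred on its group means instead, the difference was 0.22 for Il6 and Jak2, 0.31 for Lif and Jak2, 0.38 for Il6 and Ctf1, 0.46 for Il6 and Lif, 0.50 for Ctf1 and Jak2 and 0.58 for Lif and Ctf1. The group difference for which the genes were listed is part of the first measure and not of the second. The second measure grows with the spread of each gene within groups, with an SD of 0.64 for Lif, 0.31 for Ctf1 and 0.16 for Il6. A smaller value therefore need not mean that 2 genes moved together, and no median was worked out for it. The nearest genes were found by the first measure only. They lie below the median by construction, so the median gives only the scale.

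**Figure D5:**
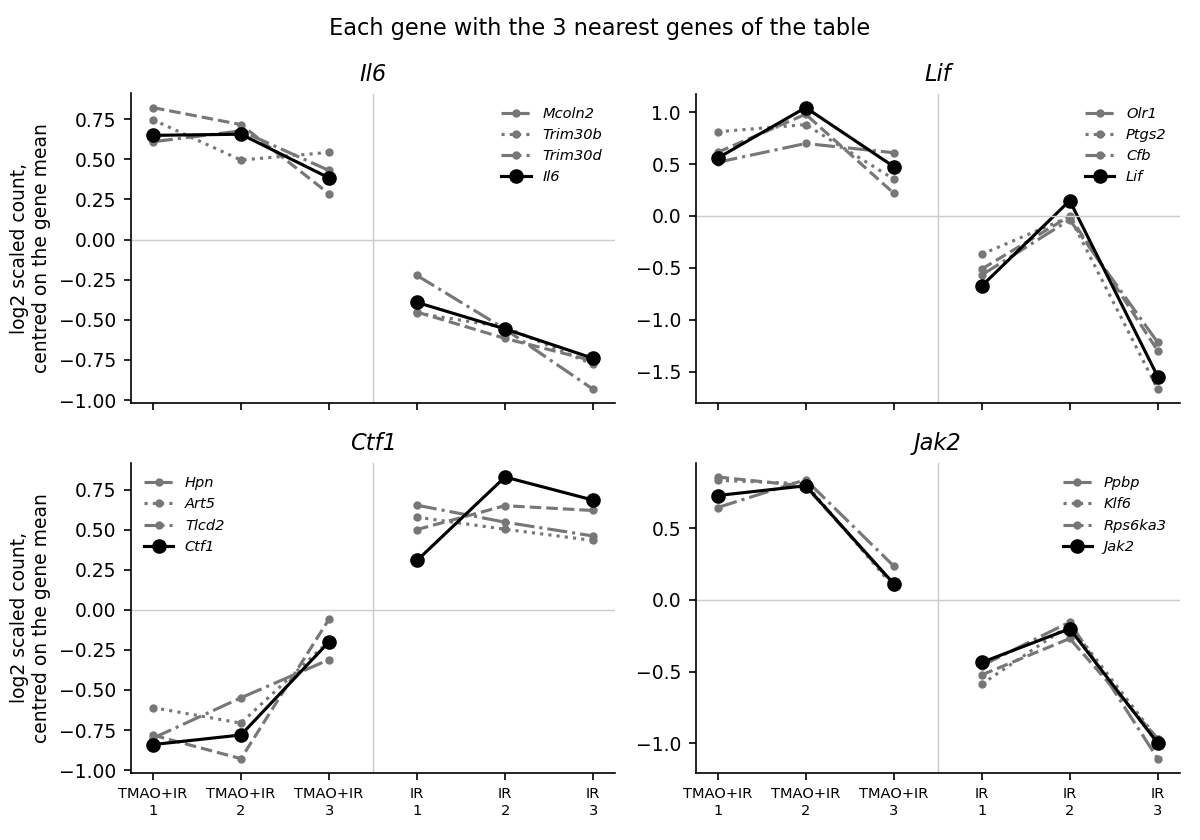
Log2 scaled counts centred on each gene's mean (y axis) in the 3 TMAO+IR and 3 IR libraries (x axis) for Il6, Lif, Ctf1 and Jak2 (black) and the 3 tabled genes nearest to each (grey). Lines join libraries of a group only to show the shape. Il6, Lif, Jak2 and their neighbours are lowest in IR replicate 3.

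Tabled markers of several other cell types were also higher with TMAO, as were 81.9% of all tabled genes. Only markers that passed the authors' limits are in the table, so their direction is no measure of cell numbers. Of 8 neutrophil markers, Mmp8 and Slfn4 were in the table, and their summed level ranged from 12.2 to 14.6 FPKM in TMAO+IR and from 4.40 to 8.06 FPKM in IR. Of 8 monocyte and macrophage markers, Ccr2, Chil3 and Cybb were in the table, with sums of 6.84 to 10.8 FPKM in TMAO+IR and 2.60 to 4.60 FPKM in IR. The log2 difference from scaled counts was 0.73 for Cybb, 1.48 for Ccr2 and 1.43 for Chil3. The authors' deposited table gave 1.07 for Cybb, 1.57 for Ccr2 and 1.51 for Chil3. Of 6 fibroblast markers, Tnc ranged from 2.96 to 4.90 FPKM in TMAO+IR and from 1.21 to 2.32 FPKM in IR. Of 5 endothelial markers, Ackr1 ranged from 1.83 to 2.58 FPKM in TMAO+IR and from 0.80 to 0.88 FPKM in IR. Of 7 cardiomyocyte markers, Myh7 alone was in the table, at 27.5 to 56.5 FPKM in TMAO+IR and 6.29 to 12.5 FPKM in IR. Myh7 was tabled for its own group difference, so it is a weak check of the labelled tissue, and no other cardiomyocyte marker was available. Of 4 erythrocyte markers, Slc4a1 was near 0, at 0.08 to 0.16 FPKM in TMAO+IR and 0.23 to 0.49 FPKM in IR. No marker of T cells (4) or B cells (3) was in the table. The other markers were not analysed here, and the part of these cells in the levels of Il6, Lif, Ctf1 and Jak2 was not tested.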

How the data were processed

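Per the submitters' processing notes, reads were handled on the GRCm38 build with StringTie 1.3.1, HISAT2, Bowtie2 2.2.8 and fastp 0.18.0, and edgeR and DESeq2 are also named, without roles. The authors deposited a table of 149 genes with whole-number counts and FPKM values per library, the mean FPKM of each group, the log2 ratio of these means, and a p-value with its FDR from their own test. The prefix T-IR in its column names was matched to the TMAO+IR group, the only group besides IR.

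Because the table holds selected genes, library sizes were worked out by dividing counts by FPKM for the 86 genes that reached 1 FPKM in each library, and set to an absolute scale with 12 genes of a single transcript. Counts were scaled to these sizes and 0.5 was added before log2. SE values come from the replicate spread. Counts limit the precision, and coefficients of variation from counting cover counting error only. Fits by edgeR 4.0.16 and DESeq2 1.42.0 to the counts (R 4.3.3) served as alternatives for the size of the difference. So did a fit by limma 3.58.1 to log2(FPKM + 0.1). The DESeq2 fit and the edgeR fits with and without a replicate block were first tested on simulated data. There most genes did not change and library sizes were known, unlike in this selected table. Other fits to counts were not tested in this way. The p-values of the fits were not used, since the table was selected on the same difference.

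The genes, gene lists and motifs were chosen with earlier results of these data known. Named were the 4 genes, tabled genes of the pathway list or of the table's JAK-STAT annotation, the 3 nearest genes of each of the 4, and tabled genes of the cell type marker lists. Promoters are from RefSeq and transcripts from GENCODE M21, both on GRCm38.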

Additional observations from a re-analysis of the deposited data

How the results depend on the processing

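Il6, Lif, Ctf1 and Jak2 kept their direction under every alternative run. Leaving out TMM scaling and single libraries, the 8 other alternatives (mean FPKM, edgeR, edgeR with a minimum mean of 50 counts, edgeR with the replicate block, DESeq2, limma on FPKM, a pseudocount of 5, and library sizes from genes with at least 5 FPKM) gave log2 differences of 1.12 to 1.17 for Il6, 1.24 to 1.38 for Lif, -1.22 to -1.12 for Ctf1 and 1.08 to 1.09 for Jak2. With single libraries left out they ran from 1.04 to 1.22 for Il6, 0.96 to 1.80 for Lif, -1.42 to -1.10 for Ctf1 and 0.86 to 1.31 for Jak2. TMM scaling within the table moved the median of all tabled genes by -1.02, since it sets the bulk of a selected table to no change. It gave 0.08 for Il6, 0.29 for Lif, -2.21 for Ctf1 and 0.05 for Jak2, and the sign turned for Csf2rb (-0.24) and the marker gene Cybb (-0.32) among the 27 genes named in the text for which it was run. The replicate block gave 1.13 for Il6, 1.37 for Lif, -1.22 for Ctf1 and 1.09 for Jak2. Deviations from the group means correlated at -0.32, 0.33 and -0.08 between libraries of equal number (replicates 1, 2 and 3, 117 genes). Only for replicate 2 was the library of equal number the best match. The labels name no pairs, so whether libraries of equal number belong together is not known. Depth limits Ctf1 most, with 27 counts in its lowest library.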

Other observations

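The table's annotation placed 10 genes in cytokine-cytokine receptor interaction, of which 9 were higher and 1, Ctf1, was lower with TMAO. With 81.9% of all tabled genes higher, this does not set the annotation apart.

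The authors' FPKM and counts of Ctf1 did not move in step. After correction for library size, the number of counts per unit of FPKM ranged from 18.4 (TMAO+IR replicate 1) to 23.1 (TMAO+IR replicate 2), a ratio of 1.25, against 1.05 for Il6, 1.02 for Lif, 1.05 for Jak2 and a median of 1.06 over 86 genes. The transcript length that this implies was 880 to 1102 bases for Ctf1, whose annotated coding transcripts run from 528 to 1352 bases. For Il6 it was 1081 to 1140 bases, beside a principal transcript of 1141 bases. In scaled counts the TMAO+IR libraries of Ctf1 stood at 30.8, 32.1 and 48.2, so replicates 1 and 2 were closer there than in FPKM.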
